A study of Canis lupus familiaris with 15 samples.

Results

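ADIPOQ, FFAR4, PCK1, GATM, GPX3 and CES1 are 6 genes of fat cells and metabolic enzymes, followed here across 15 canine samples. They were taken by name, as the genes whose RefSeq accessions stand in the array's annotation on 13 of 43603 probes, out of 1357 gene symbols that could be attached to probes. The samples came from 5 dogs with lymphoma, and RNA of each was hybridised to its own 1-colour Agilent array to compare pre-treatment tumours, remission and relapse, with skin as control tissue. Skin biopsies came from MalcolmX and Rosco (n = 2). Biopsies of tumours labelled drug resistant came from MalcolmX, Jake, Rosco and Dog Y (n = 4), and a biopsy of a drug-sensitive tumour came from Thai (n = 1). MalcolmX also gave a fine needle aspirate after metformin. Rosco gave 7 more samples, which were an aspirate of a second drug-resistant tumour, an aspirate after failed chemotherapy and before metformin, an aspirate in remission after metformin, 3 aspirates at relapse after metformin, and tumour retrieved after death. The labels give no breed, age, dose or duration. They call the Rosco and Dog Y biopsies both drug resistant and taken before treatment, and the titles of the relapse samples read no remission. The title of the sensitive biopsy reads naive, and that of the failed-chemotherapy aspirate reads resistant failed chop.

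Fat cells store fatty acids as triglyceride and release them on demand. They secrete the hormone adiponectin, which is known in other mammals to act on liver and muscle through AMP-activated protein kinase, the energy sensor that metformin also engages. Fat lies under the skin and around lymph nodes, so a biopsy or needle can take up fat cells beside the tissue aimed at. In bulk samples such as these, fewer cells of a type and less RNA per cell cannot be told apart.

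Every level below is the log2 processed signal of a probe minus the 75th percentile of its own array, so 0 is a bright spot and each step of 1 is a doubling. The 75th percentile itself ran from 367 to 1241 intensity units, 66.7% to 75.9% of the probes of an array gave signal well above background, and the lowest level well above background lay between −6.86 and −5.50. Levels of different probes cannot be set against each other, since probes bind with unequal strength. Several arrays stood apart in their cell markers. MS4A1, the B cell surface protein CD20, was not well above background in the Rosco biopsy (−7.15) and in the second resistant aspirate (−6.73). On the same arrays 4 named exocrine gland markers summed to 415 and 542 times the 75th percentile, against at most 12.7 on any other array. In MalcolmX skin MS4A1 reached 0.84, while in Rosco skin it was not well above background at −8.03. The 8 named keratinocyte markers summed to 205 and 1306 in skin, 49.0 and 53.0 in the Rosco biopsy and second resistant aspirate, and at most 4.72 elsewhere.

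**Figure D1:**
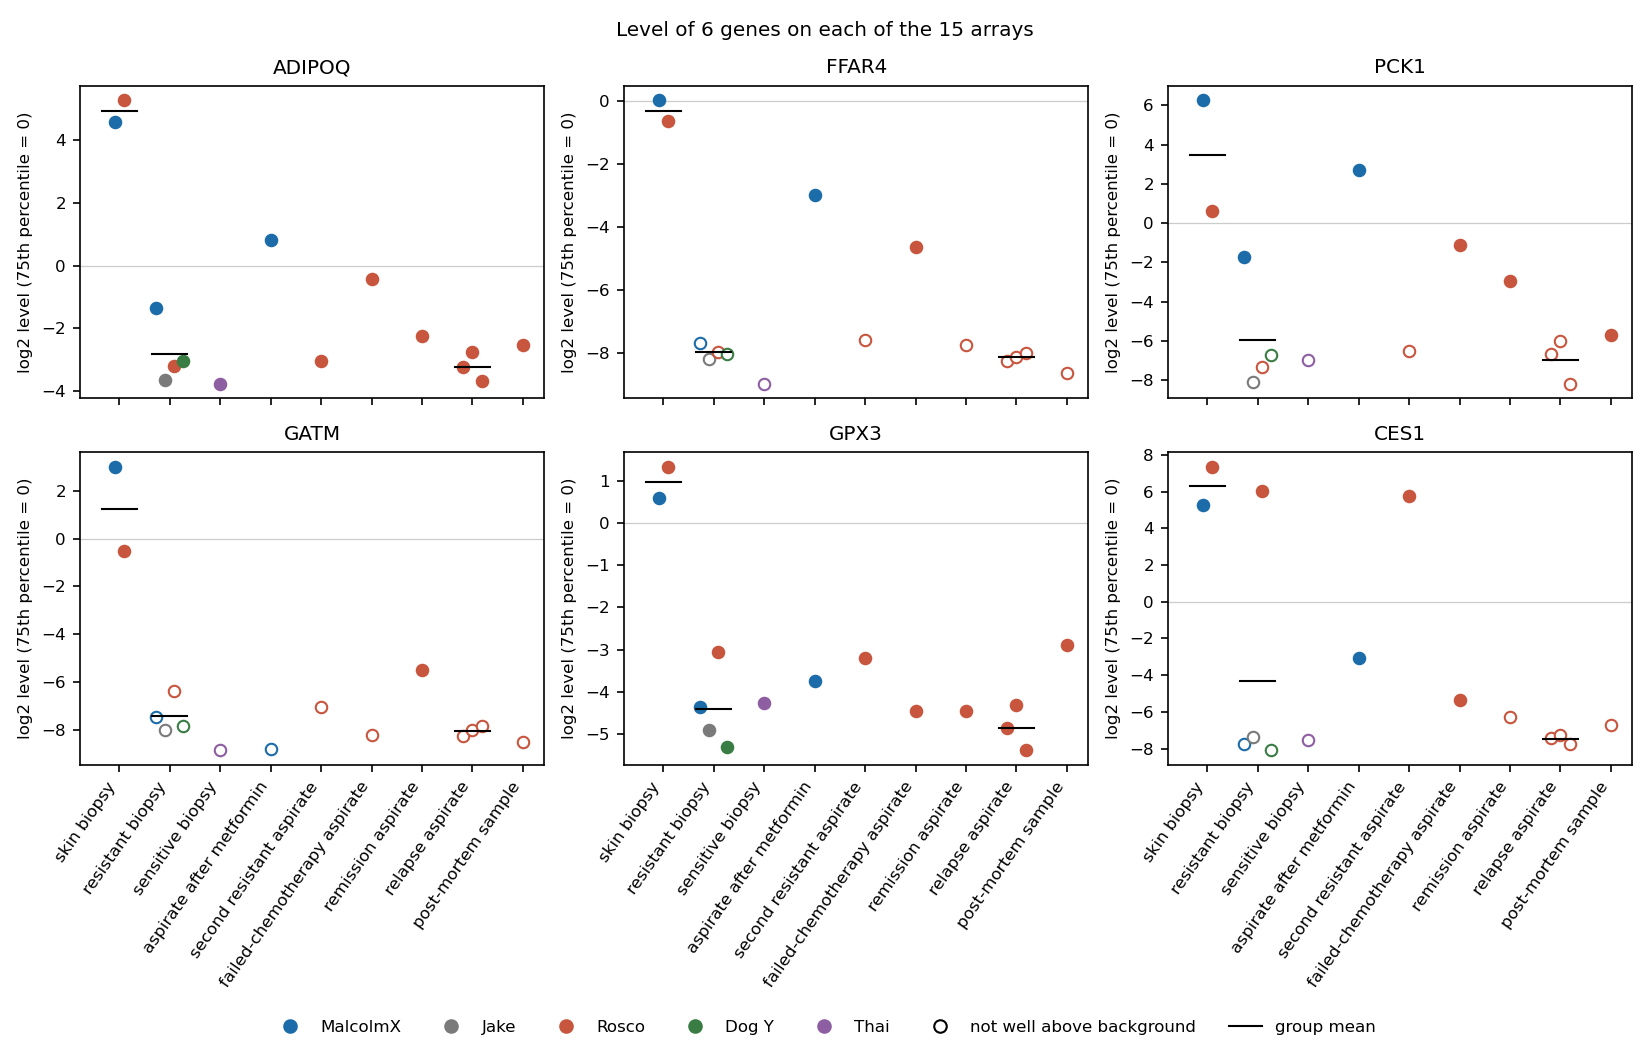
Log2 level of each gene (vertical axes, 75th percentile of the array = 0) on the 15 arrays, grouped by sample type, with 1 point per array coloured by dog, hollow where the spot was not well above background, and a line at the mean of groups with more than 1 array. ADIPOQ, FFAR4, GATM and GPX3 were highest in the skin biopsies, PCK1 was as high in the MalcolmX aspirate after metformin as between the 2 skins, and CES1 was also bright in the Rosco biopsy and the second resistant aspirate.

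ADIPOQ encodes adiponectin, the hormone made almost solely by fat cells. Its level was 4.58 in MalcolmX skin and 5.28 in Rosco skin. The resistant biopsies gave −1.34 in MalcolmX, −3.65 in Jake, −3.20 in Rosco and −3.03 in Dog Y, and the sensitive biopsy gave −3.77. All 13 tumour samples lay below both skins, and the sensitive tumour was the lowest of all 15. Among aspirates, the level was 0.83 in MalcolmX after metformin, −3.02 in the second resistant aspirate, −0.44 after failed chemotherapy and −2.24 in remission. The relapse aspirates gave −3.24, −2.76 and −3.66, and the post-mortem sample gave −2.52. The MalcolmX aspirate and the failed-chemotherapy aspirate were thus the highest tumour samples. The gaps between skin, those aspirates and the remission aspirate exceeded the pooled spread within groups (SD 0.79). From the remission aspirate down to the sensitive biopsy, neighbouring sample types differed by less than that SD. The second ADIPOQ probe, A_11_P118426, followed the one used, A_11_P0000020131, with Pearson's r = 0.986 over the 15 arrays.

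FFAR4 encodes a cell surface receptor for long-chain fatty acids that fat cells carry. It was well above background on 4 of 15 arrays only. These were MalcolmX skin at 0.02, Rosco skin at −0.64, the MalcolmX aspirate after metformin at −2.98 and the failed-chemotherapy aspirate at −4.65. They are the same 4 arrays on which ADIPOQ was highest, in the order of skin above the MalcolmX aspirate above the failed-chemotherapy aspirate, and the gaps between those sample types exceeded the pooled SD of 0.25. Levels on the other arrays were not well above background and have no order. They ran from −8.20 to −7.69 in the 4 resistant biopsies, from −8.27 to −8.02 in the 3 relapse aspirates and stood at −8.99 in the sensitive biopsy. The second resistant aspirate gave −7.61, the remission aspirate −7.76 and the post-mortem sample −8.65. FFAR4 had 1 probe on the array.

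PCK1 encodes the cytosolic phosphoenolpyruvate carboxykinase, which opens glucose synthesis in liver and kidney and feeds glycerol synthesis for triglyceride storage in fat cells. The skins were far apart, at 6.27 in MalcolmX and 0.64 in Rosco. The resistant biopsies gave −1.71 in MalcolmX, and −8.10 in Jake, −7.31 in Rosco and −6.70 in Dog Y, where no PCK1 probe that could be read stood well above background. MalcolmX thus held the higher value of both tissues. The MalcolmX aspirate after metformin reached 2.69, above Rosco skin, so 12 of 13 tumour samples lay below both skins. In Rosco the failed-chemotherapy aspirate gave −1.12, the remission aspirate −2.96 and the post-mortem sample −5.70. The second resistant aspirate (−6.49), the sensitive biopsy (−6.97) and the relapse aspirates (−6.68, −6.00 and −8.19) were not well above background on the probe used, A_11_P0000038801. On another PCK1 probe, A_11_P000001765, the sensitive biopsy (−6.48) and the second and last relapse aspirates (−4.93 and −5.21) were. The spread within groups was wide (pooled SD 2.69). Against it, the gaps that stood out were those from the MalcolmX aspirate to the failed-chemotherapy aspirate and from remission to the post-mortem sample. The 2 other PCK1 probes correlated with the probe used at r = 0.974 and 0.825.

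GATM encodes the mitochondrial amidinotransferase that makes guanidinoacetate, the precursor of creatine, from arginine and glycine. It was well above background in MalcolmX skin at 3.02, in Rosco skin at −0.50 and in the remission aspirate at −5.51. On the other 12 tumour arrays it was not, with levels from −8.87 in the sensitive biopsy to −6.40 in the Rosco biopsy. The remission signal was seen on 2 of the 4 GATM probes, at −5.51 and −6.00. In that sample the creatine kinase gene CKMT2 was also well above background (−5.58), while it was not in the failed-chemotherapy aspirate (−8.38). CKMT2 was likewise well above background in both skins, the Rosco and Dog Y biopsies, the second resistant aspirate and the sensitive biopsy. On those tumour arrays GATM was not. GATM did not follow ADIPOQ into the MalcolmX aspirate, where it stood at −8.80.

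GPX3 encodes the secreted glutathione peroxidase of plasma, a selenoprotein that reduces peroxides. On the probe used, A_11_P0000039311, it was well above background on all 15 arrays, at 0.59 in MalcolmX skin and 1.33 in Rosco skin. The other GPX3 probe, A_11_P221303 (r = 0.970), was not in the Dog Y biopsy (−7.70) and the first and last relapse aspirates (−6.26 and −6.50). The levels that follow are those of the probe used. The resistant biopsies gave −4.35 in MalcolmX, −4.90 in Jake, −3.05 in Rosco and −5.31 in Dog Y. The Rosco biopsy was the highest of the 4, and the second resistant aspirate was near it at −3.18. The sensitive biopsy gave −4.25 and the MalcolmX aspirate −3.75. The failed-chemotherapy and remission aspirates were alike at −4.45 and −4.46. The relapse aspirates gave −4.86, −4.31 and −5.38, and the post-mortem sample was the highest tumour sample at −2.90. Below skin, every neighbouring pair of sample types differed by less than the pooled SD of 0.79.

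CES1 encodes a carboxylesterase of the endoplasmic reticulum that cleaves ester drugs and lipid esters. It was brightest in Rosco skin at 7.36, followed by 6.03 in the Rosco biopsy, 5.75 in the second resistant aspirate and 5.27 in MalcolmX skin. The groups therefore overlapped, and 11 of 13 tumour samples lay below both skins. The bright tumour arrays were the 2 without a clear MS4A1 signal and with the gland markers; the part of those cells in the CES1 level was not tested. The other resistant biopsies, −7.73 in MalcolmX, −7.39 in Jake and −8.10 in Dog Y, were not well above background. The MalcolmX aspirate gave −3.08 and the failed-chemotherapy aspirate −5.34. The remission aspirate (−6.29), the post-mortem sample (−6.73), the sensitive biopsy (−7.55) and the relapse aspirates (−7.41, −7.24 and −7.76) were not well above background.

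**Figure D2:**
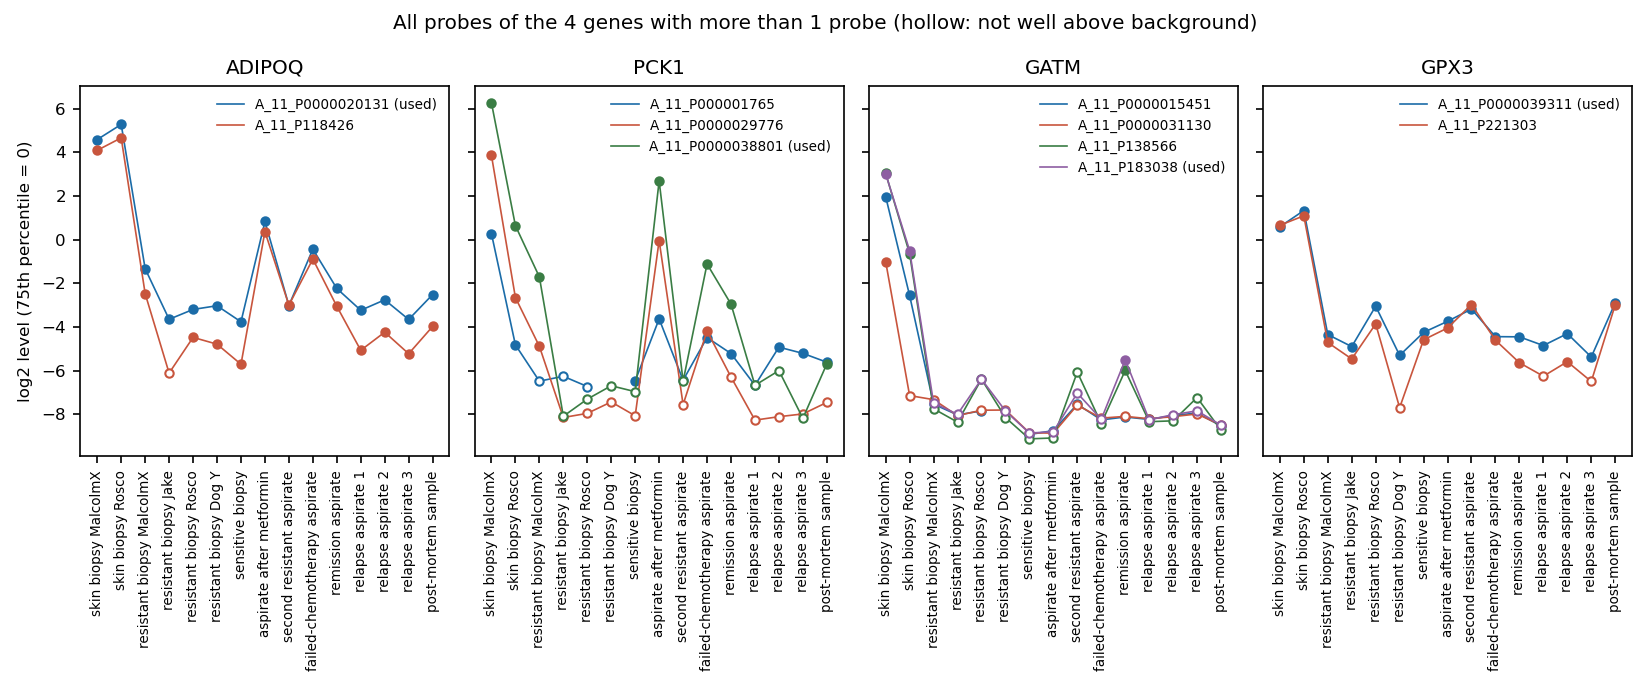
Log2 level (vertical axis, 75th percentile = 0) of every probe of ADIPOQ, PCK1, GATM and GPX3 on each array (horizontal axis), with 1 line per probe and hollow points where a spot was not well above background. The ADIPOQ probes ran in parallel (r = 0.986), the PCK1 probe A_11_P000001765 had a smaller range than the others (r = 0.825), and the remission aspirate rose above background on 2 of the 4 GATM probes.

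Among the 1161 named genes well above background on at least 3 arrays, the genes most like each of the 6 over the 15 arrays were as follows. These correlations describe arrays that share dogs and the skin contrast, and carry no test. The pattern nearest to ADIPOQ was that of FFAR4 (r = 0.969) and next that of the matrix gene DPT, dermatopontin (0.962). PCK1 was also among the genes nearest to FFAR4 (0.898), and the patterns nearest to PCK1 were those of FFAR4 and ADIPOQ (0.897). ADIPOQ, FFAR4 and PCK1 were thus among each other's nearest genes, except that PCK1 was not among the 3 nearest to ADIPOQ. GATM was nearest to the small heat shock gene HSPB8 (0.947), the epidermal keratin KRT1 (0.919) and the muscle caveolin CAV3 (0.915). GPX3 was nearest to the oestrogen receptor ESR1 (0.949) and the epidermal keratins KRT14 (0.946) and KRT1 (0.945). CES1 was nearest to MYOC, myocilin (0.973), the sulfotransferase SULT1A1 (0.966) and the epithelial keratin KRT19 (0.965). ADIPOQ and CES1 were less alike, with r = 0.594.

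**Figure D3:**
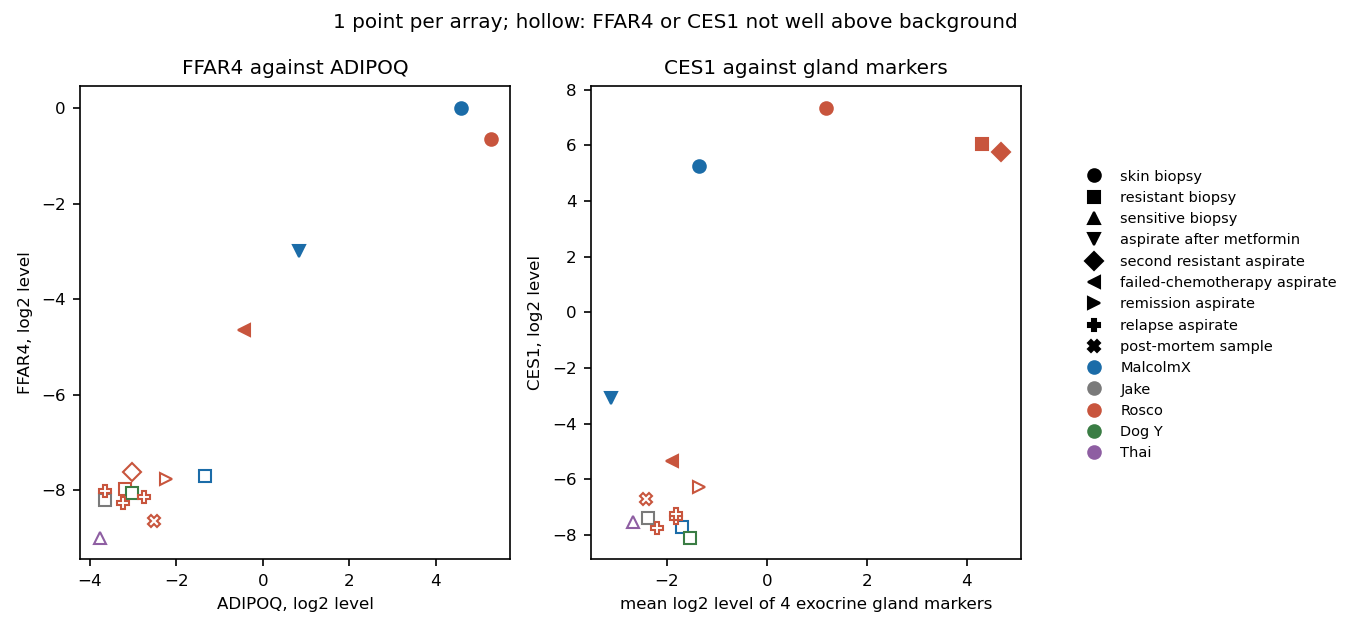
Left, FFAR4 against ADIPOQ (log2 levels); right, CES1 against the mean log2 level of 4 exocrine gland markers, with 1 point per array, shape for sample type, colour for dog and hollow points where FFAR4 or CES1 was not well above background. FFAR4 left background only on the 4 arrays with the highest ADIPOQ, from −0.44 to 5.28, and CES1 was bright in the Rosco biopsy (6.03) and second resistant aspirate (5.75) and in skin, where gland markers were lower.

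The resistant biopsies were compared with the skin biopsies, the control tissue of the series. ADIPOQ, FFAR4, GATM and GPX3 fell in the biopsies, and PCK1 and CES1 did not pass the test. By limma with Benjamini-Hochberg adjustment over 23951 targets, 0.434% of targets were called and 0.426% were called lower, while 4 of the 6 genes were called lower. On the probes used, only ADIPOQ and GPX3 were well above background on all 6 arrays. The other 4 genes entered the test through skin alone, where they were high, so nothing is read from the count. The median over all targets tested was 0.24 higher in the biopsies. Mean ADIPOQ was −2.81 (SD 1.01, n = 4) in biopsies and 4.93 (SD 0.49, n = 2) in skin, a difference of −7.74 (SE 0.70, limma adjusted p = 0.0168), or 213-fold lower. FFAR4 averaged −7.97 (SD 0.21) against −0.31 (SD 0.46), which is at least 46.3-fold lower (SE of the log2 difference 0.36, limma adjusted p = 0.00356). GATM averaged −7.44 (SD 0.73) against 1.26 (SD 2.49), at least 137-fold lower (SE 1.01, limma adjusted p = 0.0368). For these bounds each dim array entered at the lowest signal it could tell from background, or at the spot's own signal where that was greater. With normexp, which adds an offset of 50 before the log and so draws dim spots together, the log2 difference was −3.20 for FFAR4, still called (limma adjusted p = 0.0111), and −4.43 for GATM, no longer called (0.171). Both are smaller than the bounds. GPX3 averaged −4.40 (SD 0.98) against 0.96 (SD 0.53), or 41.1-fold lower (SE 0.68, limma adjusted p = 0.0462). With normexp its log2 difference was −3.76 in place of −5.36, still called (limma adjusted p = 0.0338). For all 4 genes the groups did not overlap, which held with biopsies lower for 10.5% of all targets tested.

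PCK1 averaged −5.95 (SD 2.89, n = 4) in biopsies and 3.45 (SD 3.98, n = 2) in skin. Its groups did not overlap, yet the difference of −9.41 had an SE of 2.23 and missed the threshold (limma adjusted p = 0.205). CES1 averaged −4.30 (SD 6.89) against 6.31 (SD 1.48), a difference of −10.61 (SE 4.18, limma adjusted p = 0.330). Without the Rosco biopsy 12.7% of targets were called and 6.66% were called lower, and 5 of the 6 genes were among the latter, FFAR4, GATM and CES1 again through skin alone. CES1 was then at least 4602-fold lower, with a difference of −14.05 (SE 0.67, limma adjusted p = 0.00487). The size of this bound depends on how dim spots are read. With normexp and the Rosco biopsy kept, the CES1 difference was −7.50 in place of −10.61, and normexp was not run without that biopsy. PCK1 still missed (−8.95, limma adjusted p = 0.0635). ADIPOQ, FFAR4, GATM and GPX3 remained called, with differences of −7.60, −7.67, −9.04 and −5.81 and limma adjusted p of 0.0131, 0.00487, 0.0161 and 0.00817.

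The ADIPOQ call was lost without the Jake or the Dog Y biopsy (limma adjusted p = 0.0973 and 0.0751), the GATM call without any one of the MalcolmX, Jake and Dog Y biopsies (0.128 to 0.167), and the GPX3 call without any one of those or of the skins (0.0798 to 0.188), while FFAR4 passed without any single array. FFAR4 and GATM were not well above background in any of the 4 biopsies. Their SE therefore rests partly on the spread of dim spots, and FFAR4 passing more often is not read as a firmer call. MalcolmX and Rosco gave both tissues: with these 4 arrays alone and dog as a block none of the 6 was called by limma (ADIPOQ −7.20, adjusted p = 0.105; FFAR4 −7.52, 0.0714; GATM −8.20, 0.148; GPX3 −4.66, 0.132). With dog as a random block over all 6 arrays the same 4 genes were called by limma (adjusted p of 0.00228 to 0.0307).

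Slides 1 and 2 each held both tissues, and all 6 arrays were scanned on the first of the 2 scan days. Within slide 1 and slide 2 the differences were −7.88 and −6.61 for ADIPOQ and −8.09 and −7.05 for FFAR4. They were −10.44 and −6.99 for GATM, and −5.01 and −5.68 for GPX3. PCK1 gave −13.64 and −2.35, where slide 2 sets MalcolmX tumour against Rosco skin, and CES1 gave −8.42 and −15.09. With slide as a block, ADIPOQ and FFAR4 passed (limma adjusted p = 0.0285 and 0.0237) and GATM and GPX3 did not (0.0784 and 0.156). Within slide 1 alone ADIPOQ, FFAR4, GATM and GPX3 missed (limma adjusted p = 0.0567, 0.0503, 0.0727 and 0.371) and PCK1 passed (0.0492). The skins also differed from the biopsies in other cell markers, with 6 named skeletal muscle markers summing to 105 and 282 in skin and 0.11 to 2.20 in the biopsies, and with 8 keratinocyte markers at 205 and 1306 against 2.37 to 49.0. Of these, KRT1 was not well above background in any of the 4 biopsies. Their part in the differences of the 6 genes was not tested.

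**Figure D4:**
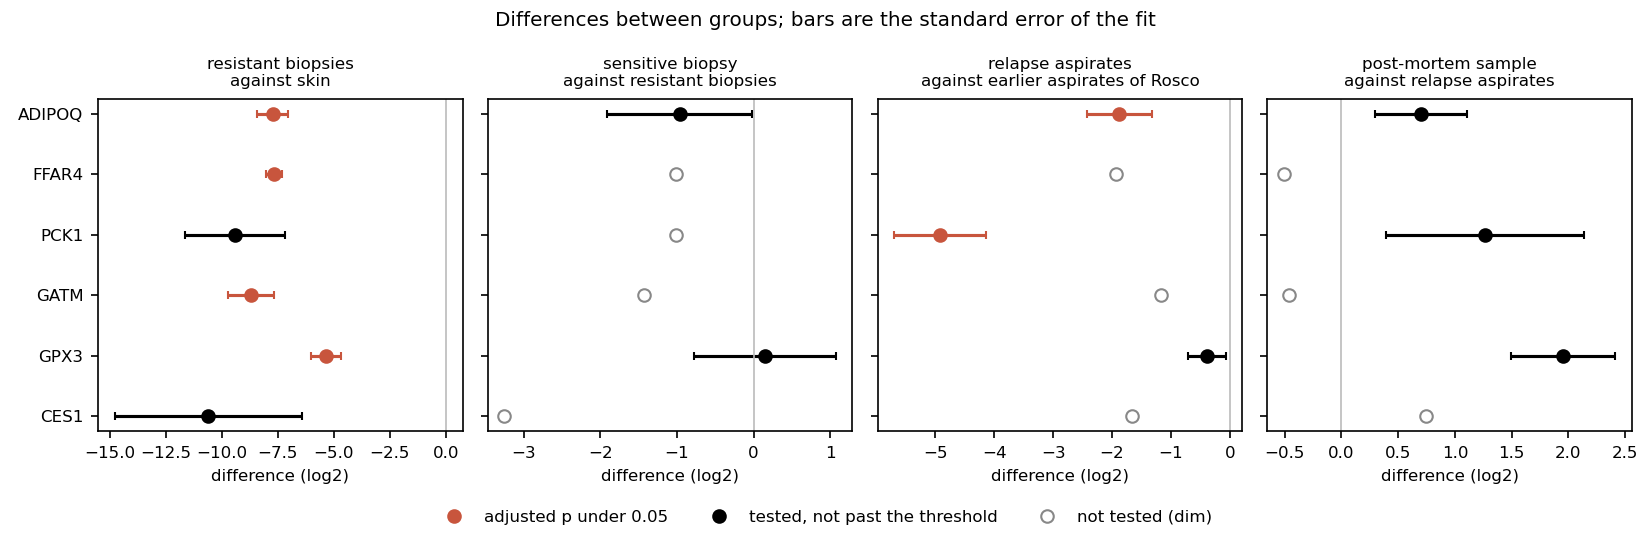
Difference in log2 level (horizontal axes, first group minus second) of each gene in the 4 group comparisons, with the standard error of the limma fit as bars, red where the adjusted p was under 0.05 and black where tested and not past it. Hollow points mark genes that were not tested, as neither group had them well above background on every array. ADIPOQ, FFAR4, GATM and GPX3 were called in resistant biopsies against skin (−7.74, −7.67, −8.70 and −5.36), and ADIPOQ and PCK1 in relapse against earlier aspirates (−1.88 and −4.92).

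Genes of the same pathways were described from lists. Of 15 named fat cell and lipid storage genes, 12 were tested between resistant biopsies and skin, 8 lower and 4 higher in the biopsies, with 0 called (median difference −2.40 against 0.24 over all targets). The largest differences were those of the fatty acid transporter CD36 (−5.36, SE 2.84, limma adjusted p = 0.386) and of CAV1, the main protein of caveolae (−4.84, SE 1.76, limma adjusted p = 0.313). Chosen after its values were seen, PPARG, the master transcription factor of fat cells, came nearest to the threshold in this list (−4.64, SE 0.61, limma adjusted p = 0.0517). CD36 did not follow ADIPOQ everywhere, being at 4.91 in the Rosco biopsy and 4.72 in the second resistant aspirate, above both skins (3.94 and 3.57). Of the fatty acid and hydroxy-acid receptors beside FFAR4 only the lactate receptor HCAR1 was named, and it was well above background on 1 array, the second resistant aspirate (−5.50). The 8 glucose genes around PCK1 split 4 higher and 4 lower with 0 called (median −0.04). Beside GATM, CKMT2 stood at −4.40 (SE 1.93, limma adjusted p = 0.348) and the arginase ARG2 at 0.05. The 13 antioxidant genes beside GPX3 had a median of −0.01 and 0 called. The 14 tested carboxylesterase and drug-metabolising genes beside CES1 had a median of −0.75, with 10 lower, 4 higher and 0 called.

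The single drug-sensitive tumour (Thai) was set against the 4 resistant biopsies, which also served in the comparison with skin. By limma 0 of 26372 targets were called (0.0%), and 2.98% had an unadjusted p under the same threshold. ADIPOQ at −3.77 lay below all 4 resistant biopsies, as did 15.3% of targets (difference −0.96, SE 0.95, limma adjusted p = 0.999). GPX3 at −4.25 lay within them (difference 0.15, SE 0.92, limma adjusted p = 0.999). The other 4 genes were not tested, since on the probes used neither group had them well above background on every array. Of these, CES1 was well above background in the Rosco biopsy (6.03) and PCK1 in the MalcolmX biopsy (−1.71). The sensitive biopsy was scanned on another day and slide than the resistant ones, so batch and group cannot be told apart.

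The 3 relapse aspirates of Rosco were compared with the 2 earlier aspirates of that dog, taken after failed chemotherapy and in remission. On the probes used, PCK1 and ADIPOQ fell at relapse. By limma 33.7% of 25381 targets were called, 16.3% as lower, and of the 3 genes bright enough to be tested 2 were called lower. PCK1 entered only through the earlier aspirates, where it was high, so nothing is read from this count. PCK1 averaged −6.96 (SD 1.12, n = 3) at relapse and −2.04 (SD 1.30, n = 2) before, at least 15.7-fold lower on the probe used (difference −4.92, SE 0.78, limma adjusted p = 0.00556). The 3 probes disagreed in size. A_11_P0000029776 gave −8.13 against −5.24, while A_11_P000001765 gave −5.61 against −4.86 with overlapping groups and 2 of 3 relapse aspirates well above background. The mean over the probes differed by −2.85 and the normexp value by −1.64, both still called (limma adjusted p = 0.00813 and 0.0172) and both smaller than the bound. ADIPOQ averaged −3.22 (SD 0.45) and −1.34 (SD 1.27), 3.68-fold lower (difference −1.88, SE 0.55, limma adjusted p = 0.0435). For both genes the groups did not overlap, which held with relapse lower for 31.5% of all targets tested. GPX3 averaged −4.85 (SD 0.53) and −4.45 (SD 0.0059), with a difference of −0.40 (SE 0.32, limma adjusted p = 0.392) and overlapping groups. FFAR4, CES1 and GATM were well above background in 1 of the 2 earlier aspirates and in none of the relapse aspirates, and were not tested.

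The PCK1 call held in the comparison without each single array, at limma adjusted p from 0.00686 to 0.0390. The ADIPOQ call was lost without the failed-chemotherapy aspirate (difference −0.98, limma adjusted p = 0.155) or without any one of the relapse aspirates (0.0968, 0.0512 and 0.104 in their order). Slides 3 and 4 each held both groups, and within them PCK1 differed by −5.56 and −4.14 and ADIPOQ by −2.80 and −0.97, where the ADIPOQ call was lost within slide 4 (limma adjusted p = 0.296). Cell markers moved in the same comparison. The 3 named T cell markers summed to 11.4 and 10.3 in the earlier aspirates and to 0.27 to 0.35 at relapse. CD8A and CD28 carried this, while CD4 was −2.98 and −2.11 before and −3.18 to −2.66 at relapse. The log2 level of MS4A1 was 0.41 and 0.38 before and 1.78 to 2.33 at relapse. Their part in the PCK1 and ADIPOQ differences was not tested. All 5 aspirates came from 1 dog, so the error is that within this dog.

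Over all targets 17.4% were called higher and 16.3% lower at relapse, and the lists are to be read against these shares. The fat cell list had 8 of 10 tested genes lower at relapse and 0 called (median −0.17 against −0.08 over all targets). Among 8 glucose genes, the lactate dehydrogenase LDHB (0.94) and the aminotransferase GOT1 (0.90) rose, and the aldolase ALDOC (−2.56) and the pyruvate kinase PKLR (−1.58) fell. CPT1A, which admits fatty acids to mitochondria for oxidation, rose by 1.11 and ARG2 fell by 2.29. Among 13 antioxidant genes, the peroxiredoxin PRDX1 (0.74) and the thioredoxin reductase TXNRD1 (1.03) rose. The glutathione peroxidase GPX1 (−1.48), the catalase CAT (−1.01) and the selenium carrier SELENOP (−1.29) fell. Among 14 drug-metabolising genes, 4 rose and 1 fell. The aldehyde dehydrogenase ALDH1A1 rose by 1.84 and the cytochromes P450 CYP2B6, CYP3A12 and CYP3A26 by 1.57, 2.31 and 4.27, while CYP2D15 fell by 1.50. CYP3A26 was at least 4.29-fold and CYP2B6 at least 2.19-fold higher, both being dim in the earlier aspirates. The limma adjusted p of these 16 genes ran from 0.000485 to 0.0447.

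The post-mortem sample was compared with the relapse aspirates, which it shares with the comparison before. By limma 0 of 27124 targets were called (0.0%), and 15.2% had an unadjusted p under the same threshold. GPX3 showed the largest difference of the 3 genes tested, at −2.90 after death against −4.85 at relapse (difference 1.95, SE 0.46, limma adjusted p = 0.202). PCK1 differed by 1.26 on the probe used (SE 0.87, limma adjusted p = 0.521). On A_11_P000001765 the post-mortem level of −5.62 lay within the relapse aspirates, of which 2 were well above background. ADIPOQ differed by 0.70 (SE 0.41, limma adjusted p = 0.460). On the probes used, all 3 genes lay above the 3 relapse aspirates, as did 36.9% of all targets tested. The lone array was assumed to vary like the relapse aspirates. Cell markers differed in the same comparison. All 5 named fibroblast and matrix markers were higher after death (median difference 3.49), as were the 3 endothelial markers (3.01). The 3 T cell markers were lower (−0.40). Their part in the differences of the genes was not tested. One sample was retrieved after death and the others were aspirates, so collection and group cannot be told apart.

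The series holds a sample before and after metformin from 2 dogs, with 1 array each, so differences within a dog have no replicate check. In MalcolmX, ADIPOQ went from −1.34 before to 0.83 after (4.49-fold higher) and PCK1 from −1.71 to 2.69 (21.1-fold higher). FFAR4 was at least 5.73-fold higher and CES1 at least 5.32-fold higher after metformin, both having been dim before. With normexp these log2 differences were 1.26 and 1.14, smaller than the bounds. These are 4 of the 6 genes past 2-fold higher. Of all targets well above background on both arrays 1.47% were so, and of those well above background on 1 or both, with dim arrays at their bound, 1.79%. None of the 6 was past 2-fold lower, against 7.6% and 9.34% of targets counted the same ways. FFAR4 and CES1 entered through the array after metformin alone, where they were high, so nothing is read from these counts. GPX3 was 1.52-fold higher and GATM was dim on both arrays. The sample before was a biopsy and the one after an aspirate, both on slide 2, so treatment and collection cannot be told apart.

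In Rosco, where both samples were aspirates, the same genes were lower after metformin. ADIPOQ went from −0.44 to −2.24 (3.49-fold lower) and PCK1 from −1.12 to −2.96 (3.58-fold lower). FFAR4 was at least 2.62-fold lower and CES1 at least 1.61-fold lower, both being dim in remission. With normexp FFAR4 differed by −0.46, under 2-fold, and CES1 by −0.17. By the bounds 3 of the 6 genes were past 2-fold lower, against 1.48% of targets well above background on both arrays and 1.93% of those well above background on 1 or both. FFAR4 entered through the array before metformin alone, where it was high, so nothing is read from this count. GPX3 was level (−4.45 and −4.46) on the probe used, while its other probe was 1.03 lower on the log2 scale after metformin. GATM was at least 1.52-fold higher in remission on the probe used. With normexp its log2 difference was 0.19, smaller than the bound. The GATM probes A_11_P0000015451 and A_11_P0000031130, dim in both samples, differed by 0.13 and 0.08. None of the 6 genes was past 2-fold higher by these bounds, against 3.04% and 3.67% of targets, and nothing is read from this count either. Of the 2 named liver markers, SERPINA1 was higher in remission (0.68 against −1.96) and CYP2E1 was not well above background in either sample; their part was not tested. The samples lay on slides 3 and 4, so slide and treatment cannot be told apart.

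**Figure D5:**
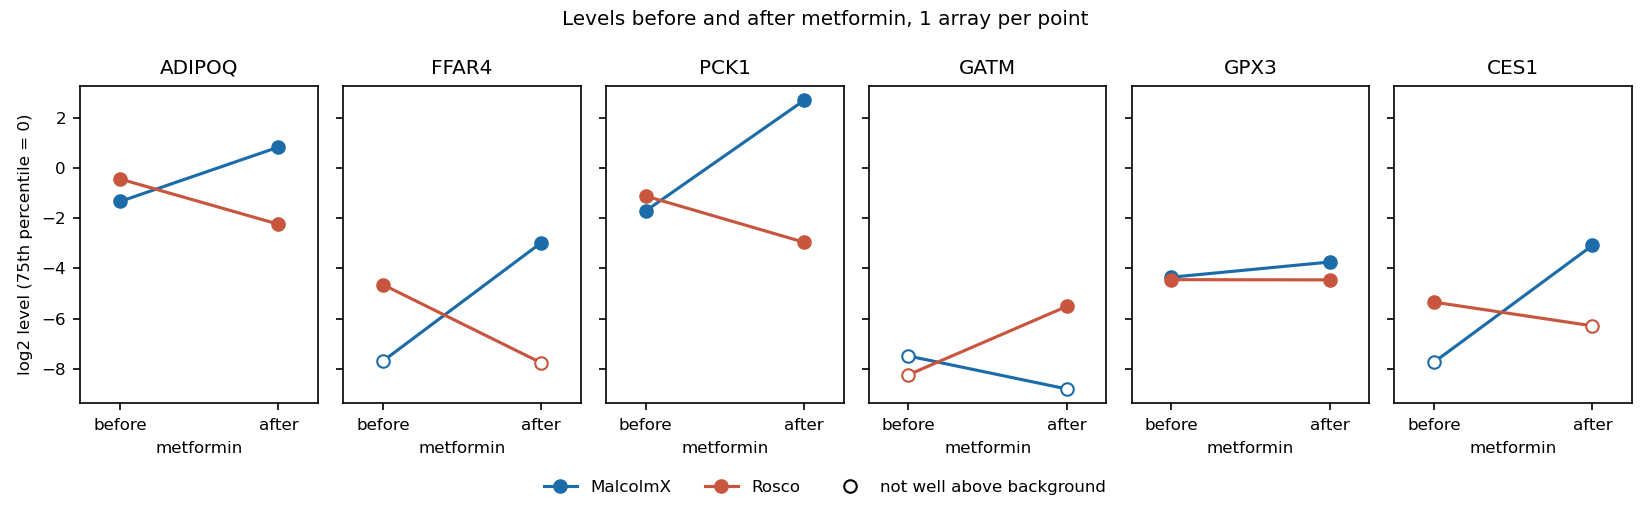
Log2 level (shared vertical axis, 75th percentile = 0) of each gene before and after metformin in MalcolmX (blue) and Rosco (red), 1 array per point, hollow where not well above background. ADIPOQ, FFAR4, PCK1 and CES1 were higher after metformin in MalcolmX and lower in Rosco, by 2.17 and −1.80 for ADIPOQ and 4.40 and −1.84 for PCK1; lines of FFAR4 and CES1 end on hollow points, so only their bounds are measured (at least 5.73-fold and 5.32-fold higher, 2.62-fold and 1.61-fold lower).

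Other fat cell genes were read in the same pairs. CD36 was 1.38 higher on the log2 scale after metformin in MalcolmX and differed by −2.61 in Rosco, and PPARG was 1.17 higher and differed by −1.32. APOC1 (−3.30 and −1.20) and the cortisol-forming enzyme HSD11B1 (−1.73 and −1.34) were lower in both dogs. PPARG, APOC1 and HSD11B1 were chosen here after their values were seen. Of the fat cell list 2 of 11 genes well above background on both arrays were past 2-fold higher and 3 past 2-fold lower in MalcolmX, and 0 of 10 higher and 5 lower in Rosco. The list's median difference was −0.11 in MalcolmX and −0.69 in Rosco, against 0.00 and 0.03 over all targets. Leptin, the other fat cell hormone of the list, moved little (LEP, −0.17 and 0.34). Other cell markers moved unevenly. In MalcolmX 5 fibroblast and matrix markers summed to 138 before and 66.2 after, with the collagens COL1A1 (4.39 to 1.33) and COL1A2 (6.57 to 4.24) lower and DCN, decorin, higher (3.12 to 4.98). Of 6 muscle markers only the carbonic anhydrase CA3, which rodents make in muscle and in fat, moved with ADIPOQ in both dogs. CA3 went from −3.28 to 1.48 in MalcolmX and from −0.42 to −4.09 in Rosco. Their part in the differences was not tested.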

How the data were processed

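The authors' intensities came from Agilent Feature Extraction 11.0.1.1, per the submitters' processing notes and the file headers, which record background-subtracted processed intensity not normalised between arrays. Other deposited columns, per the file headers, flag spots that are well above background, saturated or outlying. The deposited series table holds linear median intensity minus background, as checked in 678300 of 678300 cells within 0.01. Each array held 43803 spots for 43603 probes; 2 to 50 outlying spots per array were left out and 0 were saturated. From the deposited intensities, log2 values minus the array's 75th percentile were computed. RefSeq accessions named 2186 probes (5.01%), leaving 36604 targets, each read on its probe of highest mean. No genome positions or probe sequences were used here.

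A target entered a test only if all arrays of 1 or more of the groups had it well above background. Differences were tested two-sided with limma 3.58.1 in R 4.3.3 (Python 3.11.15 for tables), Benjamini-Hochberg adjusted over all targets, threshold 0.05. A permutation of 2 against 4 samples cannot go below p = 0.0667. Groups came from the labels; the labels do not say how repeated samples were separated, so p-values measure the spread between these samples. Animals gave both skin and tumour in MalcolmX and Rosco, which is the basis of the dog block. Precision is limited by the number of arrays.

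The 6 genes and the 7 pathway and 11 marker lists were chosen with earlier results of these data known. Named beside the 6 were their 3 most correlated genes and, per list, genes past the threshold in any comparison, or else the 2 with the largest difference between biopsies and skin; not every gene the rule took is reported here. Of the marker lists, the sebaceous gland list had 0 named genes. Alternatives were quantile scaling, another percentile base, normexp background correction, the series table, the filter on dim targets, the probe rule, single arrays left out, and slide and dog as blocks.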

Additional observations from a re-analysis of the deposited data

Results flagged for a closer look

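CES1 in the resistant biopsy of Rosco, at 6.03, stood far from the other 3 resistant biopsies (−8.10 to −7.39). Its gap to the nearest of them was 0.950 of the whole range of the 4 values. The rule behind this picks out about 1 in 20 groups by chance.

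The metformin pairs of the 2 dogs had opposite signs for 5 genes, with 1 pair per dog, and the difference between dogs was not tested. ADIPOQ differed by 2.17 in MalcolmX and −1.80 in Rosco, and PCK1 by 4.40 and −1.84. FFAR4 differed by 4.71 and −3.11 and CES1 by 4.65 and −0.94, each against 1 spot that was not well above background. Their bounds are at least 5.73-fold higher and 2.62-fold lower for FFAR4, and 5.32-fold higher and 1.61-fold lower for CES1. GPX3 differed by 0.60 and −0.0083, the latter being close to 0, and in the series table by 0.39 and 0.38, which is the same direction.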

How the results depend on the processing

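Over 195 recomputed differences of the 6 genes in tested comparisons, 151 kept direction and side of the threshold, 38 no longer passed, 2 newly passed and 4 changed sign; over 36 in the metformin pairs, 13 moved clearly with the same sign and 2 changed sign. The sign changes were: GPX3 in sensitive against resistant biopsies (−0.28 in the series table, −0.15 to 0.60 without single biopsies), GPX3 at relapse (0.017 with normexp) GATM in MalcolmX (0.0080 with normexp, dim on both arrays) and GPX3 in Rosco (0.38 with the series table); the cause was not tested.

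For resistant biopsies against skin, 104 targets were called. The count was 57 with normexp, 56 with the series table, 66 with no filter, 6 with targets bright on every array, 32 with slide as a block and 40 within slide 1. It was 0 with dog as a fixed replicate block on 4 arrays (2159 at unadjusted p under 0.05, limma) and 152 with dog as a random replicate block, and 5 (no Jake biopsy) to 3097 (no Rosco biopsy) without single arrays. GATM and GPX3 also missed with the series table (limma adjusted p = 0.0531 and 0.0575) and with no filter (0.0610 and 0.0765). At relapse 8551 were called, 2490 within slide 4 and 3772 to 9753 without single arrays. ADIPOQ there missed with quantile scaling (limma adjusted p = 0.0616), normexp (0.0759), the series table (0.0554) and no filter (0.0972). After death 286 were called with the other percentile base, 219 with normexp, 14 with the mean of probes and 0 to 431 without single arrays. Past 2-fold, MalcolmX had 2102 targets (764 with normexp) and Rosco 1121 (307 with normexp, 1739 with the series table). Slide as a random block for the sensitive biopsy and the shares with dim arrays at their bound were added after seeing the data.

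FFAR4, GATM and CES1 were dim on most arrays, where signal over background limits any difference to a bound.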
